A study of Mus musculus with 12 samples.

Results

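Cytosolic ribosomal protein genes were followed across slow and fast muscle fibres of untrained and endurance-trained mice. The members were the genes whose symbol has the form of a ribosomal protein name (Rps or Rpl with a number and at most one of the letters a, l, x or y, the stalk genes Rplp0 to Rplp2, and Rpsa). The rule found 83 of the 56162 features in the deposited tables, 32 of the small subunit and 51 of the large subunit, and mitochondrial ribosomal proteins and named pseudogenes stayed out. All 83 were present in GENCODE M21 (build mm10) at identical coordinates. That annotation lists 3 of them, Rpl6l, Rpl32l and Rps4l, as processed pseudogenes although their symbols match the rule.

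RNA was sequenced from isolated myofibers of male C57BL/6J mice, labelled 8 weeks old in every group. Part of each fibre served to type its myosin heavy chain, and how many fibres entered a library is not stated in the labels. Type I myofibers (slow, oxidative) came from soleus after 90 min in collagenase, and type IIb myofibers (fast, glycolytic) came from extensor digitorum longus after 60 min, so fibre type, muscle and digestion time cannot be told apart. Trained mice ran on a treadmill at 12 to 16 m/min for 60 min, 5 days a week for 6 weeks, with muscles taken 3 days after the final session, and untrained mice served as controls. The labels name no transgene or deletion, and each of the 4 groups held 3 libraries. Whether the 3 libraries of a group came from different mice is not stated, so a p-value here reflects variation among libraries that could be technical.

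A ribosome reads messenger RNA on its small subunit and joins amino acids on its large subunit, and each ribosome carries a single copy of most of its proteins. Vertebrate messages for these proteins belong to the TOP class: their first bases are a C followed by a run of pyrimidines, through which mTORC1 signalling controls their translation. Striated muscle is known for a paralog switch in the large subunit, where Rpl3l, a gene expressed mainly in skeletal muscle and heart, can take the place of the ubiquitous Rpl3. The protein both encode lies close to the peptidyl transferase centre.

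The start sites of the members are shown first because the TOP run is the feature that the family is best known for, and because Rpl3l, on whose ratio to Rpl3 the results turn, has no long run at its annotated starts. RefSeq promoter windows (GRCm38.p6, the same assembly as mm10) were matched by symbol for 61 members, which gave 73 windows of 300 bases. The 22 members without a window included Rpl3. Each line gives 50 bases, the 35 before and the first 15 from the annotated start, 5′ to 3′ on the coding strand, with runs of 5 or more C or T in capitals. Rpl35, Rpl15 and Rpl38 hold the long run at the start, Rps6 (the S6 kinase substrate) and Rps26 are small-subunit examples, and both RefSeq starts of Rpl3l are given.
Rpl35, chr2:39005117-39005166, minus strand: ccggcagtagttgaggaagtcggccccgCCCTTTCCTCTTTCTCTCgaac
Rpl15, chr14:18270972-18271021, minus strand: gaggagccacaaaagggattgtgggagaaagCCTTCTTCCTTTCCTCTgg
Rpl38, chr11:114668545-114668594, plus strand: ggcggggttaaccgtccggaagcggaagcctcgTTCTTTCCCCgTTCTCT
Rps6, chr4:86857353-86857402, minus strand: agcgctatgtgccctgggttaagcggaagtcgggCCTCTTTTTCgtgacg
Rps26, chr10:128626492-128626541, minus strand: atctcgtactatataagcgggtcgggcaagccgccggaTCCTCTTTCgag
Rpl3l, first start, chr17:24727791-24727840, plus strand: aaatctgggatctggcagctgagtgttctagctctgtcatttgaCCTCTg
Rpl3l, second start, chr17:24732650-24732699, plus strand: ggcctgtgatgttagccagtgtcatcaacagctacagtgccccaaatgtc

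A run of at least 7 C or T between 10 bases before and 20 after the start was present in 34 of the 73 member windows (46.58%), beside 18.48% of all 32851 RefSeq windows. The longest run of a window there was 20 bases in Rpl27a, 18 in Rpl35 and 17 in both Rpl15 and Rpl7a. It was 5 and 4 bases at the 2 starts of Rpl3l. The median was 6 bases over member windows and 4 over all windows, and some members had shorter runs than Rpl3l (2 bases in Rps3, 3 in Rpl5). The ETS-type motif CCGGAAG, searched on both strands over the whole 300 bases, was in 26 member windows (35.62%) and in 8.858% of all windows. CTTTCC, a pyrimidine motif that can lie inside such a run, was in 36 (49.32%) against 26.56%, and AAGATGG was in 11 (15.07%) against 6.338%. CCGGAAG can share its last or first bases with either of the other motifs. Neither Rpl3l window held any of the 3 motifs, and this was also so for windows of other members, such as Rpl5, Rpl13 and Rps3.

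Library totals ranged from 8026397 to 24995288 counts, and features with at least 10 counts from 3636 to 14428. The main fibre markers fitted the labels: summed slow-fibre markers (Myh7, Myl2 and others) were 28964 to 53193 counts per 1e6 counts (CPM) in type I and at most 15.8 in type IIb libraries. Summed type IIb markers (Myh4, Mylpf and others) were at least 80672 CPM in type IIb libraries. They were not absent from type I libraries, at 305 to 4389 CPM, the highest in type I untrained library 1. Endothelial, fibroblast and mural markers were highest in type I untrained libraries 1 and 3 (endothelial 1008 and 793 CPM, fibroblast 192 and 10222) and in type IIb trained library 3 (204 and 170). In the type IIb untrained libraries 11 of 12 endothelial markers and all 8 mural markers were at 0. In these amplified samples less RNA of a gene per fibre and fewer contributing cells or nuclei of a kind cannot be told apart.

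The 83 genes together took 1.36 to 4.13% of all counts. In type I untrained libraries the share was 2.08, 3.45 and 2.18% (2.57% ± 0.763, SD, n = 3). Type I trained libraries gave 2.53, 4.13 and 3.20%. The type IIb untrained libraries gave 3.01, 1.46 and 2.51%, and the type IIb trained libraries 2.77, 2.28 and 1.36%. All 4 groups overlapped, with the highest share in type I trained library 2 and the lowest in type IIb trained library 3. The 95% Wilson interval of these shares was at most 0.0123 percentage points to either side, which covers counting error only, so the spread within a group was far larger than counting error. Small-subunit genes made up 38.1 to 44.3% of the members' counts, a narrow range in all 12 libraries.

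**Figure D1:**
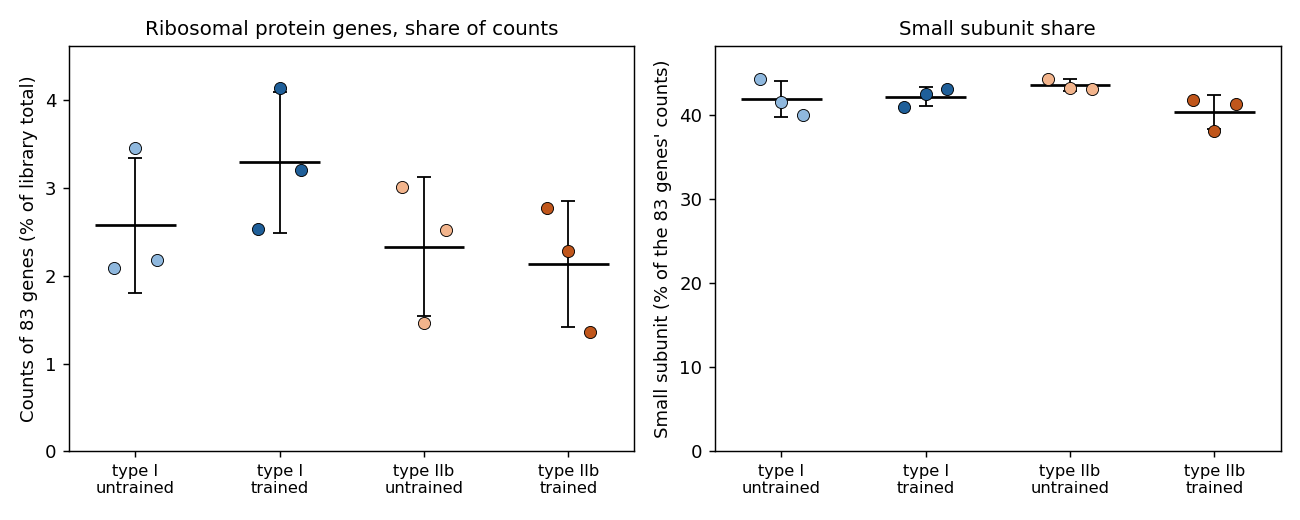
Left, counts of the 83 ribosomal protein genes as percent of each library's total; right, small-subunit genes as percent of those counts. Points are libraries (3 per group, replicates 1 to 3 from left to right), lines are means and bars SD; the total share runs from 1.36 to 4.13% and overlaps between all groups, while the small-subunit share stays between 38.1 and 44.3%.

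Levels per length were compared with the deposited FPKM (fragments scaled by gene length and library total). A mean of at least 100 FPKM was reached by 74 members, which spanned 115 to 1116 FPKM, 9.70-fold, and 68 members were among the 500 features with the highest mean FPKM. Rpl41, a very short basic protein of the large subunit, led with a mean of 1116 FPKM (rank 99 of all features), followed by Rpl26 (960), the stalk gene Rplp1 (948) and Rpl23 (942). Rpl41 ranked 1 of the members in both type I groups, 4 for type IIb untrained and 2 for type IIb trained libraries. Of the members, 73 had at least 10 counts in every library, whereas 15.7% of the 11747 genes tested below did.

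The other 9 members had means under 100 FPKM, from 47.6 for Rpl23a down, beside 115 for Rpl3, the lowest of the 74. In type IIb untrained libraries the mean of Rpl3 (5.30 FPKM) was below that of Rpl23a (48.5). Several of the 9 share exons with other annotated genes. Rpl23a (47.6 FPKM) overlaps Tlcd1 on the other strand, and 62.3% of its exon length is shared with other genes. Rpl13a (9.71 FPKM) and Rpl24 (2.62 FPKM) share 35.4 and 47.0% of their exon length with Gm45713 and Gm28037 and other small features. Rps10 (0.443 FPKM) was at 0 counts in 10 libraries, with 7 counts in type I untrained library 3 and 49 in type I trained library 3, and the readthrough gene RPS10-NUDT3 covers part of it. The part of shared exons in these low levels was not tested, and the levels are uncertain. Rpl10l, a retrogene known from testis, had 4 counts in 1 library, and Rpl39l had 2 counts in 1 library. The processed pseudogenes Rpl32l, Rpl6l and Rps4l had means of 7.18, 2.26 and 1.24 FPKM.

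**Figure D2:**
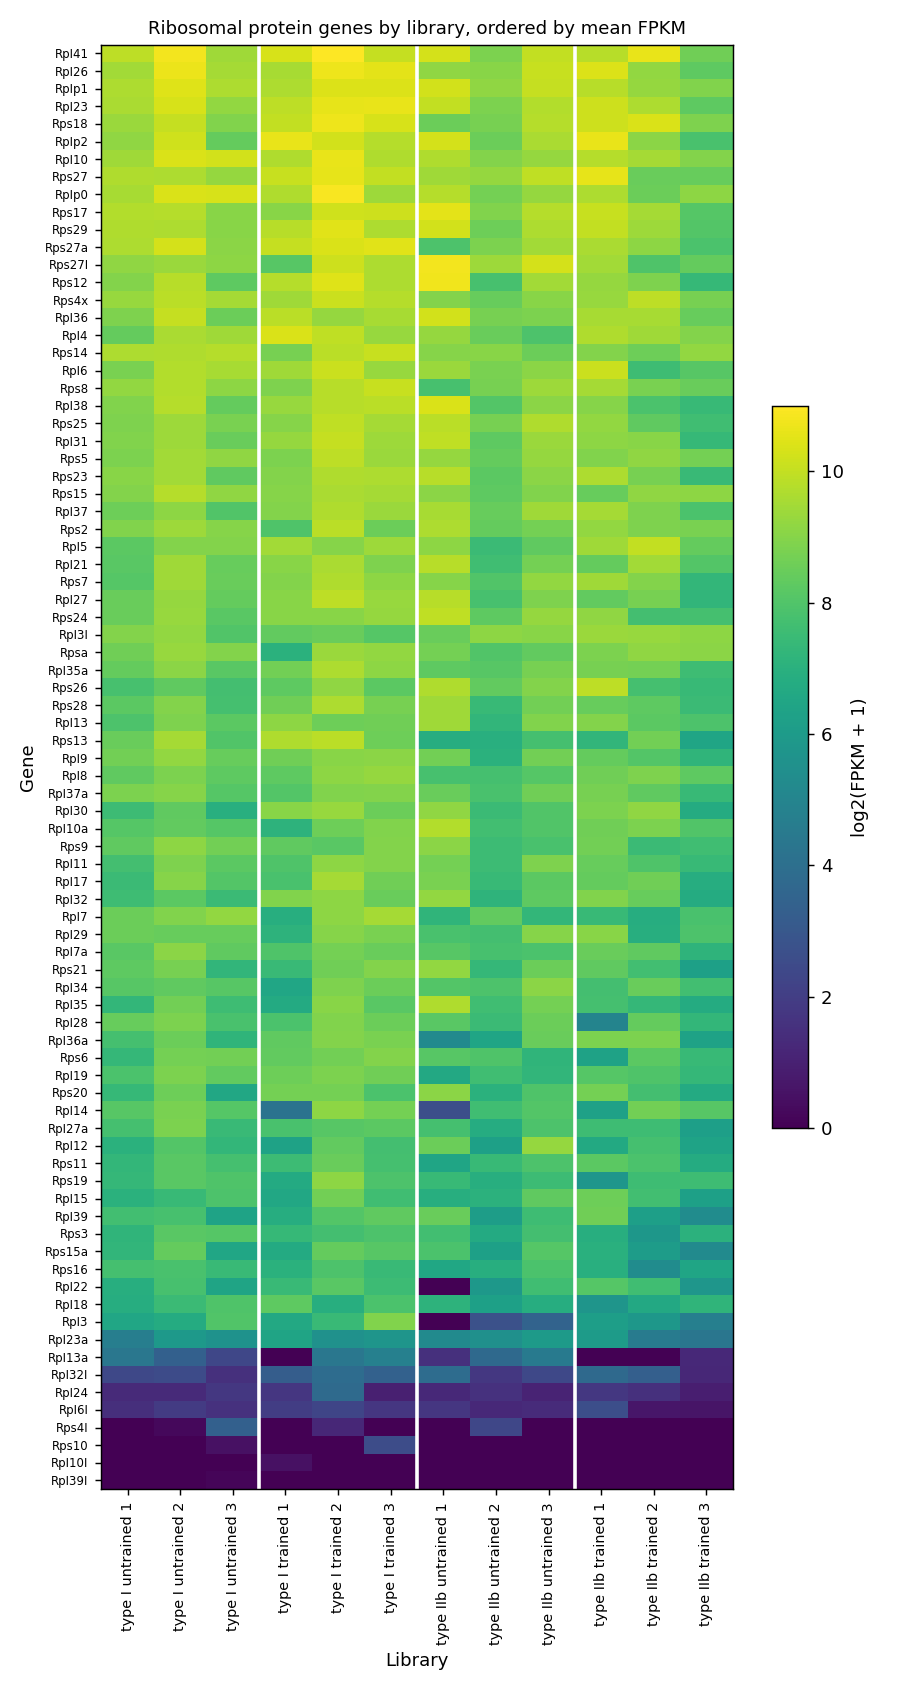
log2(FPKM + 1) of 82 of the 83 genes (rows, ordered by mean FPKM) in the 12 libraries (columns, white lines between groups). The 73 upper rows are high in nearly all libraries, the exceptions including Rpl3, Rpl22 and Rpl14 in type IIb untrained library 1. The 9 lowest rows are the members with a mean under 100 FPKM.

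Many members have near-identical copies elsewhere in the genome. A median of 40.1% of the 50-base stretches of a member's main transcript occur in other annotated genes, and 28 of 83 members exceed 50%. Counts assigned to the 296 features named as pseudogenes of a member (its symbol with the ending -ps) were 1.12 to 1.63% of the members' own counts. Copies with other names did not enter this sum or the check that adds pseudogene counts. Rpl23, for example, has 0 features so named but shares stretches with 39 other genes, chiefly Gm9794. How the authors treated reads with several matches is not given in the sources used here.

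Within the type I groups most members were highest in the same library, while in the type IIb groups the order of the libraries was more divided. Levels are given from here on as CPM on library sizes scaled by edgeR's TMM method, and 80 of the 83 genes passed its filter on low counts. Those below it were Rps10, Rpl10l and Rpl39l. Type I untrained library 2 was the highest of its group for 76 of 80 members, against 34.2% of all genes tested, and type I trained library 2 for 69 of 80, against 24.6%. Type IIb untrained library 2 was the lowest of its group for 54 members, and type IIb trained library 3 for 62. These libraries were highest for 46.9 and 51.4% of all genes, and the share of all genes lowest in them was not computed. The top was split: type IIb untrained libraries 1 and 3 were highest for 42 and 32 members, with library 1 lowest for 22. Type IIb trained libraries 1 and 2 were highest for 44 and 32. By FPKM, type IIb untrained library 2 and type IIb trained library 3 were lowest for 58 and 60 members. The order of the type I trained libraries depended on the scaling. Among them library 2 was highest for 54 members by FPKM. Library 3 was lowest for 56 by CPM and 18 by FPKM, and library 1 for 23 and 55. The median member stood at 169, 381 and 147 CPM for type I untrained, 319, 586 and 234 for type I trained, 388, 189 and 344 for type IIb untrained, and 397, 363 and 147 for type IIb trained libraries. The ranges of all 4 groups overlapped.

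A few members stood far from the rest of their group in single libraries. Rpl22 had 0 counts in type IIb untrained library 1 and 757 and 2140 in the other libraries of that group. Rpl14 had 43 counts in the same library, and 137 in type I trained library 1, against 614 to 5686 in the remaining libraries. Type IIb untrained library 1 was also the one with the fewest detected features (3636). Its part in these values was not tested.

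Rpl3 had the largest log2 fold change of all members between untrained fibre types, and it is described here with its muscle paralog Rpl3l (Rpl3, ENSMUSG00000060036, chr15:80077791-80091868; Rpl3l, ENSMUSG00000002500, chr17:24727820-24736143). Rpl3 was at 69.8, 111 and 186 CPM in untrained type I libraries and at 130, 232 and 333 CPM in trained ones. In type IIb untrained libraries it was at 0, 7.17 and 12.6 CPM, where 3 counts, the limit that a count of 0 allows, were worth 0.325 CPM in the library at 0. In type IIb trained libraries it was at 95.5, 89.1 and 31.8 CPM. Every type I untrained library lay above every type IIb untrained library, every type I trained library above every type IIb trained library, and every type IIb trained library above every type IIb untrained library, while the type I groups overlapped.

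Rpl3l was at 345, 562 and 170 CPM in untrained type I libraries and at 390, 422 and 169 CPM in trained ones. Type IIb untrained libraries held 379, 645 and 589 CPM, and type IIb trained libraries 807, 936 and 621 CPM. The trained type IIb libraries were all above the trained type I libraries, and the untrained groups overlapped.

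As a share of the pair's FPKM, Rpl3l made up 84.5, 84.8 and 50.1% in untrained and 76.7, 66.7 and 35.8% in trained type I libraries. It made up 100, 99 and 98.1% in untrained and 90.3, 92.0 and 95.5% in trained type IIb libraries. The 6 type I values (35.8 to 84.8%) and the 6 type IIb values (90.3 to 100%) did not overlap, and neither did the untrained and trained type IIb values. On raw counts the widest 95% Wilson interval of this share was 1.31 percentage points to either side. The lowest shares, 50.1 and 35.8%, were in type I libraries 3, of which the untrained one had the fibroblast sum of 10222 CPM and the trained one 56.2 CPM. Both were highest of their group in summed mural, immune (124.3 and 53.02 CPM) and satellite-cell markers (107.2 and 45.04 CPM). Both also had the most features with at least 10 counts of their group (14428 and 11852). Their erythroid sums were the lowest of their group, and their endothelial sums were not the highest. The type I untrained library with few endothelial and fibroblast markers (library 2, 47.7 and 20.2 CPM) had a share of 84.8%. Type IIb trained library 1, with endothelial markers at 0 and fibroblast markers at 0.105 CPM, had Rpl3 at 95.5 CPM. The part of other cells in these shares was not tested.

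**Figure D3:**
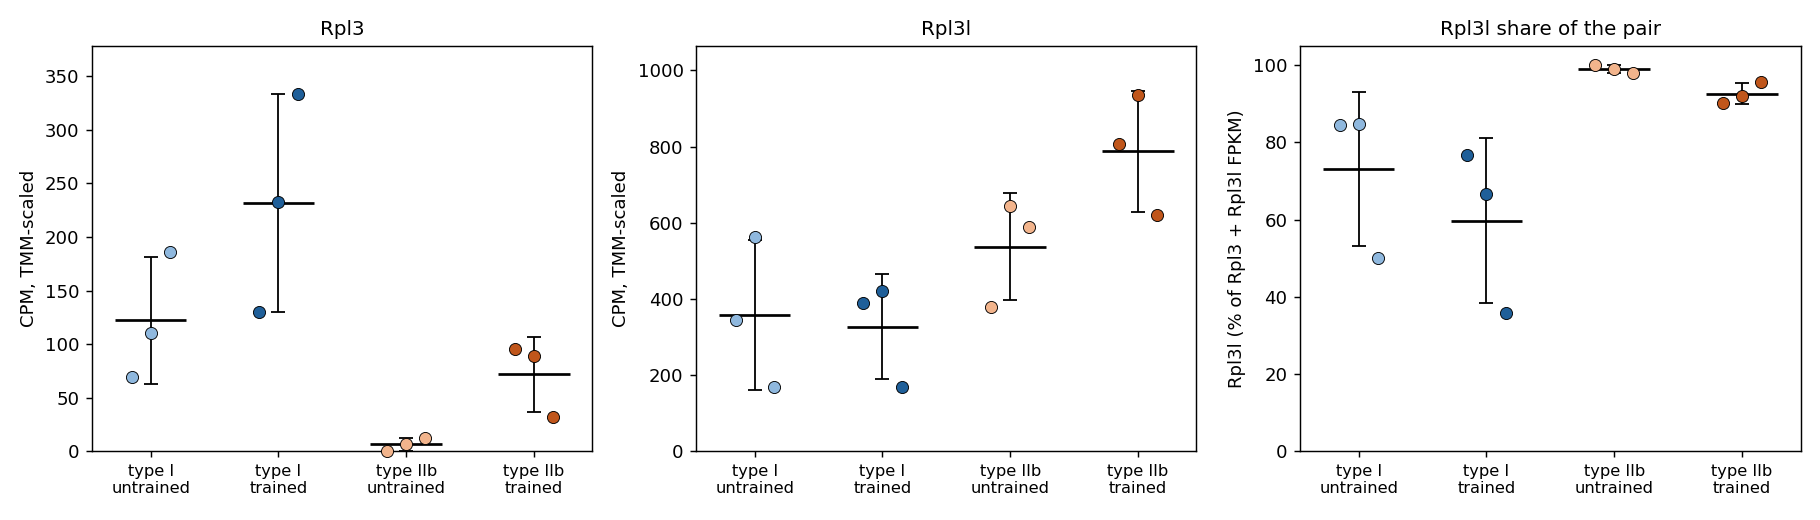
Rpl3 and Rpl3l in CPM on TMM-scaled library sizes, and Rpl3l as percent of the FPKM of both genes. Points are libraries, lines means and bars SD (n = 3); Rpl3 is at 0 to 12.6 CPM in type IIb untrained libraries and at 31.8 CPM or more elsewhere, and the Rpl3l share is 35.8 to 84.8% in type I and 90.3 to 100% in type IIb libraries.

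The sum of both genes was compared with the median member of the same library, per length. Rpl3 plus Rpl3l came to 1.77, 1.33 and 1.65 times the median member in type I untrained libraries, and to 1.09, 0.938 and 1.53 times in type I trained libraries. The type IIb untrained libraries gave 0.716, 2.55 and 1.33 times, and the type IIb trained libraries 1.71, 1.98 and 3.18 times. The untrained fibre types overlapped in this sum, as did the untrained and trained libraries of each fibre type, while the trained type IIb libraries all lay above the trained type I libraries. Rpl3 alone was at 0 to 0.0255 times the median member in type IIb untrained libraries, 0.142 to 0.166 times in type IIb trained and 0.203 to 0.980 times in type I libraries. Rpl3l ranked from 3rd to 48th of the 83 members by FPKM in type IIb and from 20th to 65th in type I libraries.

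In edgeR's quasi-likelihood test over all 11747 genes, Rpl3 had a log2 fold change of 4.21 (SE 1.31, adjusted p = 0.230) for type I minus type IIb in untrained mice and of 1.69 (SE 1.18, adjusted p = 0.819) in trained mice. The mean of both differences was 2.95 (SE 0.878, adjusted p = 0.0862). Between trained and untrained type IIb libraries the log2 fold change of Rpl3 was 3.45 (SE 1.27, adjusted p = 0.597), and in type I it was 0.92 (SE 1.16). The difference of these training differences was -2.52 (SE 1.66, adjusted p = 0.802), so a different training response in the fibre types was not shown. None of these passed the threshold of 0.05. For the untrained fibre contrast Rpl3 did pass with DESeq2 (4.56, adjusted p = 0.0127) and with limma on log2(FPKM + 1) (5.01, adjusted p = 0.0152). These called 963 and 305 of all 11747 genes higher. For the mean fibre contrast Rpl3 passed when type IIb untrained library 1, the one at 0 counts, was left out (2.66, adjusted p = 0.0294 in edgeR).

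Rpl3l had log2 fold changes of -0.58 (SE 0.530, adjusted p = 0.795) in untrained and -1.27 (SE 0.536, adjusted p = 0.610) in trained mice for type I minus type IIb in edgeR. The mean of both was -0.93 (SE 0.377, adjusted p = 0.202), which passed only in limma-voom with quality weights (-1.36, adjusted p = 0.0397), where 211 of 11747 genes were called lower. Sequence similarity bears on the counts of Rpl3 more than on those of Rpl3l. Of the 50-base stretches in the main Rpl3 transcript 85.6% occur in another annotated gene, chiefly the pseudogene Rpl3-ps1 (81.5%), and 0% of those of Rpl3l do. Rpl3 and Rpl3l share no stretch of that length (the longest identical stretch is 22 bases). Adding the counts of pseudogenes named after a member left the untrained fibre contrast of Rpl3 at 4.18 (adjusted p = 0.219 in edgeR).

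For untrained mice, type I minus type IIb, edgeR called 0 of 80 members, against 0.46% of all genes tested. At an unadjusted p under 0.05 stood Rpl3 on the higher side, and Rps26 and Rps27l on the lower side. The median log2 fold change was -0.31 over the members and 0.85 over all genes, and 85% of members against 36.9% of all genes lay within 1 of 0. The sign of the member median is not settled: it was -0.10 with size factors of the RLE type, 0.19 with library totals alone and 0.21 on log2(FPKM + 0.1). Without overlap between the groups, 1 member was higher in type I (22.8% of all genes were) and 2 were lower (4.88% of all genes were).

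The 2 lower ones were small-subunit genes. Rps26, whose protein contacts messenger RNA near the exit channel, was at 115, 217 and 102 CPM in type I untrained and at 629, 272 and 405 CPM in type IIb untrained libraries. Its log2 fold change was -1.59 (SE 0.709, adjusted p = 0.250 in edgeR). Rps27l, a paralog of Rps27 known as a p53 target, was at 181, 278 and 169 CPM in type I untrained and at 843, 349 and 618 CPM in type IIb untrained libraries (-1.53, SE 0.627, adjusted p = 0.232). Both passed in limma-voom with quality weights (adjusted p = 0.0375 and 0.0195), which called 240 of 11747 genes lower, but in none of the other tools. Rps27l took 72.0, 52.1 and 55.6% of the FPKM of the Rps27 pair in type IIb untrained and 41.1, 45.2 and 48.1% in type I untrained libraries, which did not overlap. After training the shares were 31.6, 41.0 and 48.7% in type IIb and 20.9, 42.2 and 44.3% in type I, which did. The next lowest fold changes belonged to the large-subunit genes Rpl12 (-1.37, SE 0.781, adjusted p = 0.430) and Rpl35 (-1.36, SE 0.795, adjusted p = 0.459). For Rpl35, 66.2% of the exon length lies opposite Wdr38 and Arpc5l, and Arpc5l had 31009 counts over all libraries, which these unstranded reads cannot separate from Rpl35. On the higher side, after Rpl3 and Rps13, came Rpl19 (0.70, SE 0.678) and Rpl7 (0.65, SE 0.611), neither of them below an unadjusted p of 0.3.

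For trained mice, type I minus type IIb, 0 members were called by edgeR, DESeq2 or limma-voom (0.536% of all genes by edgeR), and only Rpl3l, on the lower side, had an unadjusted p under 0.05 in edgeR. Genes passing in DESeq2 numbered 208 on the higher and 138 on the lower side, and in limma-voom 94 and 36. Member and gene medians were 0.33 and 0.21, and the member median was -0.07 without type I trained library 2 and -0.06 without type IIb trained library 3. Apart from Rpl3, Rps3 was higher without overlap (294, 375 and 225 CPM against 219, 120 and 218 CPM; 6.72% of all genes were higher in this way). Rpl3l was the single one lower, as 3.77% of all genes were. Rps3, a protein of the messenger entry site that also has nuclear roles in DNA repair, had a log2 fold change of 0.68 (SE 0.585, adjusted p = 0.899).

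Averaged over untrained and trained mice, 0 members were called between fibre types in edgeR (1.93% of all genes). The member median was 0.00 and that of all genes 0.60, and 75 of 80 members lay within 1 of 0. No member had all 6 type I libraries above, or all 6 below, all 6 type IIb libraries, whereas 2.5% of all genes had them above and 1.06% below. Rps13, a small-subunit protein at the interface of the subunits, had the next largest value after Rpl3 among well-counted members on the higher side. It was at 295, 809 and 203 CPM for type I untrained, 1182, 1298 and 274 for type I trained, 141, 166 and 279 for type IIb untrained and 213, 692 and 113 for type IIb trained libraries. Its log2 fold change was 1.30 (SE 0.507, adjusted p = 0.179), and the groups overlapped.

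**Figure D4:**
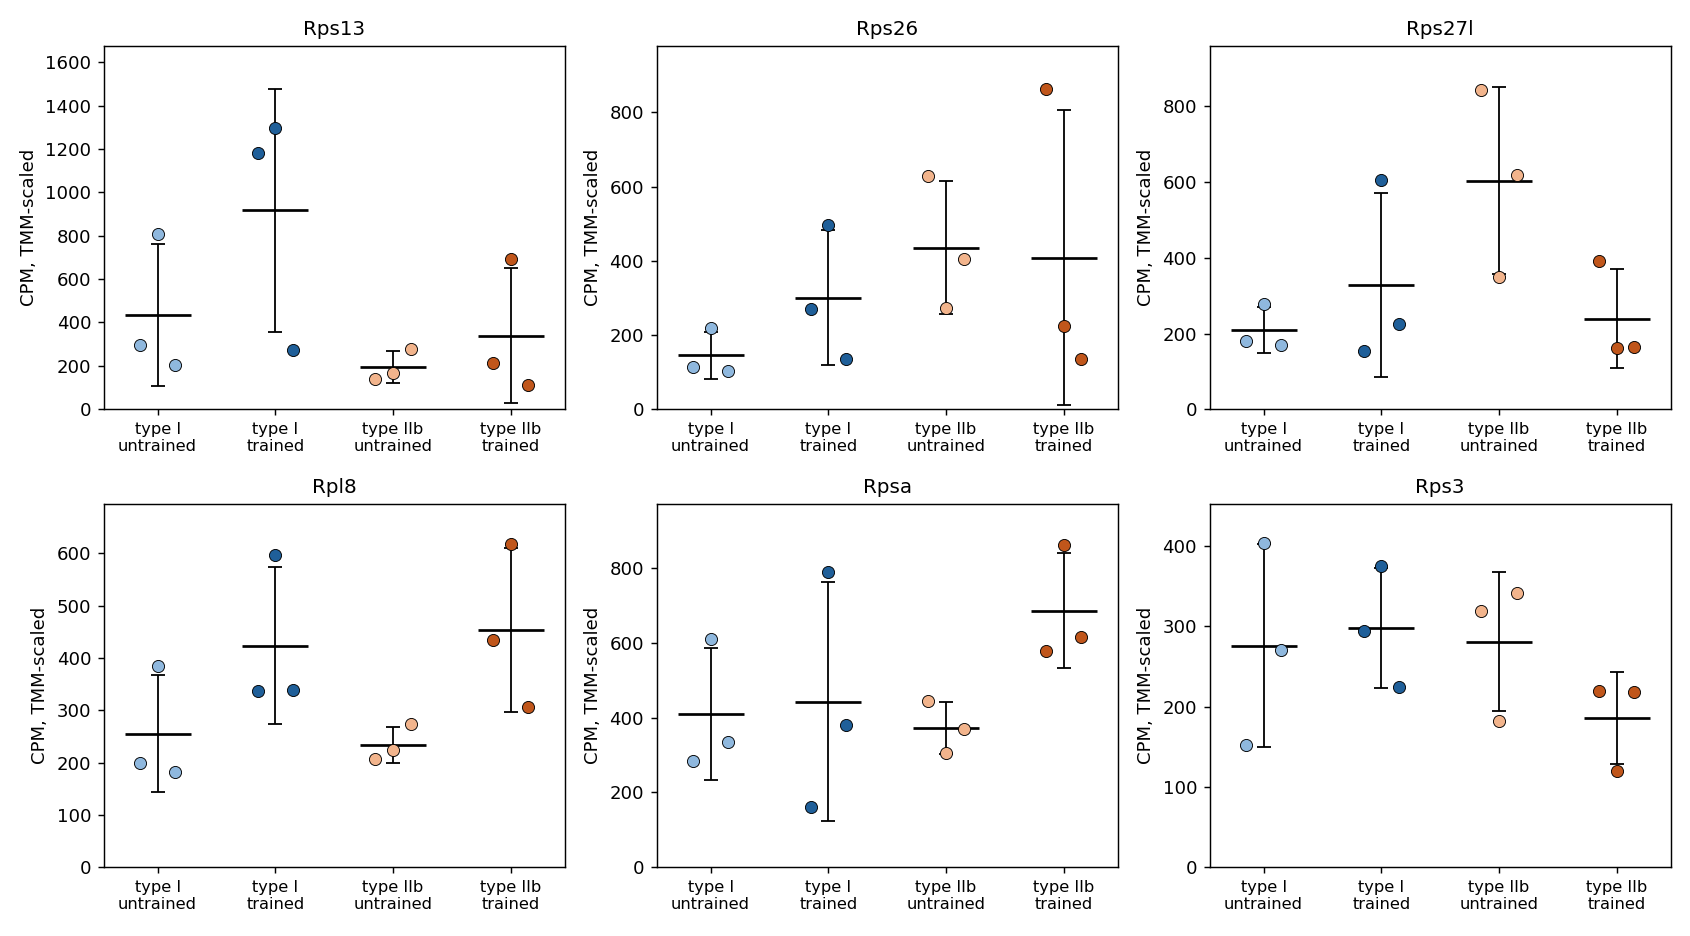
CPM on TMM-scaled library sizes of 6 members named in the text. Points are libraries, lines means and bars SD (n = 3); among untrained libraries Rps26 and Rps27l lie lower in type I without overlap, Rps3 is higher in type I than in type IIb trained libraries, and Rpl8 and Rpsa are higher in trained than in untrained type IIb libraries, while no member passed the adjusted threshold in edgeR.

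Training in type I myofibers left 0 members called by edgeR, DESeq2 or limma-voom (0% of all genes by edgeR). Genes that passed in DESeq2 were 1 on the higher and 58 on the lower side, and in limma-voom 2 and 7. Rpl30 (1.68, SE 0.732, adjusted p = 1 in edgeR) was the single member with an unadjusted p under 0.05. Fitted log2 fold changes were positive for 78 of 80 members, with a median of 0.68 beside -0.28 over all genes, where 42.5% were positive. Small-subunit genes had a median of 0.65 and large-subunit genes of 0.69. Rpl3l (-0.13) and Rps4l were the exceptions. The median stayed positive, at 0.36 to 0.41, under other scalings and on FPKM, with 62 to 70 members positive. It was 0.24, with 55 members positive, when type I trained library 2 was left out, and 1.20 when type I untrained library 2 was. With the 3 libraries of highest endothelial signal left out it was 0.07, with 47 of 81 members positive, and a single untrained type I library was left. Since most members move together within the type I groups, their number is no measure of replication. Without overlap, 1 member was higher after training (the pseudogene Rpl32l, at most 6.60 CPM; 2.78% of all genes) and 0 were lower (8.93% of all genes).

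In type IIb myofibers training gave 0 called members in edgeR, DESeq2 and limma-voom as well (0% of all genes in edgeR). By DESeq2, however, 307 of the 11747 genes passed as higher and 57 as lower, and by limma-voom 0 and 1. Among the members, unadjusted p-values under 0.05 in edgeR belonged to Rpl3 and Rpl5 on the higher and Rps27l on the lower side. The member median was 0.09 beside 0.36 over all genes, and it was -0.12 with library totals alone and -0.18 on log2(FPKM + 1), so its sign is not settled. Rpl3, Rpl8 and Rpsa were higher without overlap (3 of 80 members, or 3.75%, beside 2.82% of all genes). Rpl13a, at 10, 101 and 143 counts in untrained and 0, 0 and 12 in trained libraries, was lower (1.92% of all genes were). Rpl8, a protein near the peptidyl transferase centre, was at 207, 223 and 273 CPM in untrained and 435, 619 and 307 CPM in trained libraries (0.95, SE 0.538, adjusted p = 0.646). Rpsa, the small-subunit protein also known as the laminin receptor, was at 443, 304 and 370 CPM in untrained and 578, 860 and 615 CPM in trained libraries (0.88, SE 0.558, adjusted p = 0.733). Rpl5, which binds the 5S RNA, had a log2 fold change of 1.22 (SE 0.566, adjusted p = 0.597), and Rps27l one of -1.33 (SE 0.623, adjusted p = 0.597).

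The test of the difference between the training responses called 0 members in edgeR, DESeq2 and limma-voom (0% of all genes in edgeR), with Rps27l alone at an unadjusted p under 0.05 (1.98, SE 0.875, adjusted p = 0.504 in edgeR). Over all 11747 genes, 27 passed on the positive and 363 on the negative side with DESeq2, and 0 and 3 with limma-voom. Rps27l was at 154, 606 and 224 CPM in type I trained and at 390, 163 and 165 CPM in type IIb trained libraries, so the trained groups overlapped. The member median of this difference was 0.65 and that of all genes -0.68. It was -0.10 with the 3 libraries of highest endothelial signal left out. For training averaged over fibre types edgeR called 0 members and 0% of all genes, and 6 members had an unadjusted p under 0.05, all higher after training: Rpl3, Rpl4, Rpl5, Rpl8, Rpl30 and Rps18. These were 7.5% of members, beside 3.82% of all genes in either direction at that p. In the other comparisons 1.25 to 3.75% of members had such a p, beside 2.94 to 17.5% of all genes.

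**Figure D5:**
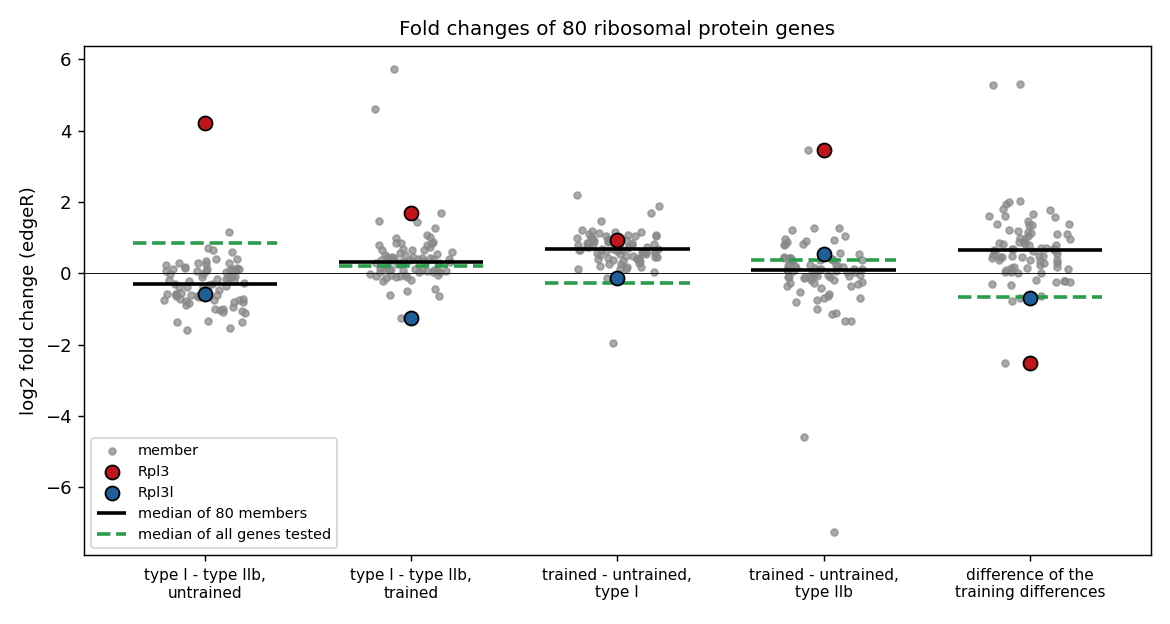
edgeR log2 fold changes of the 80 members that passed the filter in the 5 comparisons; black lines are member medians, dashed green lines medians of all 11747 genes, red points Rpl3 and blue points Rpl3l. In the untrained fibre contrast 85% of members lie within 1 of 0. Rpl3 lies at 4.21 and 3.45 in the untrained fibre contrast and in type IIb training. The points beyond 4 in the other comparisons are Rps4l and Rpl13a, at 0, 0 and 0 and at 0, 0 and 12 counts in the type IIb trained libraries.

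The other genes of translation were read from lists, described by counts and medians. No gene of any of these lists was called by edgeR in any of the comparisons. Ribosomal proteins outside the name rule (5 of 7 tested, among them Rack1, a scaffold of the small subunit) had a median of 0.69 for training in type I, with 5 of 5 positive, close to the members' 0.68. The 19 other TOP messages gave 0.57, with 15 positive. The list of 10 elongation factors and associated genes, among them the kinase gene Eef2k, gave -0.26 there and 1.16 in type IIb. In type IIb 9 of 10 were positive, beside 61.0% of all genes, whose median was 0.36. The 39 initiation factors gave 0.12 and 0.42, and the 40 tested ribosome biogenesis genes -0.26 and 0.60, for training in type I and in type IIb. These lists overlap and are not separate evidence. Eef1a1, Eef1b2, Eef1d, Eef1g and Eef2 are in both the elongation and the TOP list. Eif3e, Eif3f, Eif3h, Eif4b and Pabpc1 are in both the initiation and the TOP list. Npm1 is in the TOP and biogenesis lists, and Eef2k also in the list of translational control below.

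Eef1a1, the ubiquitous elongation factor whose place Eef1a2 takes in muscle, had one of the 2 highest fitted values of its list between untrained fibre types. It was at 146, 180 and 689 CPM in untrained and 280, 341 and 198 CPM in trained type I libraries. Type IIb libraries held 0, 8.94 and 12.3 CPM in untrained and 0, 0 and 106 CPM in trained mice. Its log2 fold change was 5.58 (SE 2.56, adjusted p = 0.291 in edgeR) for type I minus type IIb in untrained mice. Unlike Rpl3, it was at 0 in 2 of the 3 type IIb trained libraries. The genes of mTORC1 and translational control (25 of 28 tested) had medians of -0.75 for training in type I and 0.67 in type IIb.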

How the data were processed

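Read counts per gene (whole numbers, not normalised) and FPKM were deposited by the authors for 12 libraries made with the SMART-Seq HT and Nextera XT kits, which do not mark strand, per the labels' protocols. The aligner TopHat2 and the build mm10 come from the submitters' processing notes, and the sources used here do not give the counting program or annotation release. Deposited FPKM equalled count over length over total within 0.1% for 94.49% of nonzero values. Of the per-sample columns, 0 were unused. Reads were amplified without molecular identifiers, and intervals therefore cover counting error only.

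Counts were tested with edgeR 4.0.16 in R 4.3.3 (robust quasi-likelihood fit, TMM, minimum count 10 and total 15, 11747 genes, Benjamini-Hochberg adjusted p under 0.05), in one fit of all 12 libraries with a mean per group. SE is the absolute log2 fold change over the square root of the F statistic, not a separately estimated error. Alternatives used DESeq2 1.42.0, limma 3.58.1 (voom with quality weights, and log2 FPKM with a pseudocount of 1 or 0.1), other scalings, pseudogene counts added to their gene, and each library left out. The fit was tested on simulated counts with the spread of these data, for the untrained fibre contrast. Of 100 genes changed 4-fold it called 4%, and of 100 changed 16-fold 33%, with 3 false calls among 11747 genes. The changed genes were drawn from all well-counted genes, not from the members alone. A count of 0 called members therefore does not show that the members were unchanged. Members named within a comparison were taken from those with the 5 highest or 5 lowest fold changes or FPKM, those called and those in paralog pairs. Not every such member was named, so the named ones are not the full set of extremes. Members separated between groups, members with an unadjusted p under 0.05, and Rpl14, Rpl30, Rpl4 and Rpl23a were named after their values were seen. Members and lists were chosen with earlier results of these data known. The row of 1 member is not reported here and is left out of the plot of levels, though it enters the counts and medians.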

Additional observations from a re-analysis of the deposited data

How the results depend on the processing

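In edgeR no member was called under any scaling, without the filter, with only the groups compared or with pseudogene counts added. Counts of called members changed as follows. For untrained mice, type I minus type IIb, DESeq2, limma on log2(FPKM + 1) and limma on log2(FPKM + 0.1) each called 1 higher member, Rpl3, and limma-voom called 2 lower ones, Rps26 and Rps27l. Of all 11747 genes DESeq2 called 963 higher, limma on log2(FPKM + 1) 305 and on log2(FPKM + 0.1) 282, and limma-voom called 240 lower. For the mean fibre contrast DESeq2 called 1 higher member (Rpl3), limma on log2(FPKM + 1) and on log2(FPKM + 0.1) 2 each (Rpl3 and Rps13), and limma-voom 1 lower member (Rpl3l). All genes called there were 916 higher for DESeq2, 512 and 486 higher for limma on FPKM, and 211 lower for limma-voom. Leaving out single libraries gave 0 to 1 higher members there, the 1 coming without type IIb untrained library 1. Leaving out the 2 libraries with the fewest detected genes gave 1 as well. Of all genes edgeR called 94 of 13459 higher in the former fit and 130 of 13433 in the latter. The median over the members of the difference between training responses was -0.096 with the 3 libraries of highest endothelial signal left out, and the cause was not tested. These leave-outs of 2 and 3 libraries were chosen after seeing the data. Without mitochondrially encoded counts the members' mean share was 3.15% for untrained and 4.29% for trained type I libraries, and 3.23% for type IIb untrained and 2.92% for type IIb trained ones, since the denominator is smaller. The untrained type I mean was then below that of type IIb, whereas it was above it with those counts (2.57 against 2.33%), and the untrained groups overlapped both ways.

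The groups share replicate numbers 1 to 3. With a replicate block 0 members were called in every comparison, and the untrained fibre median was -0.45. Deviations of same-numbered libraries correlated at -0.126 to 0.177 over 18 pairs, of which 4 exceeded 0.1. In 6 of the 18 pairs the same-numbered library of the other group was the best match of its 3. The numbers were therefore not taken to pair the samples. The comparison with only the groups compared could not be made for contrasts over all 4 groups. The median biological coefficient of variation was 0.765 over the members and 1.75 over all genes tested, which limits the differences that 3 libraries a group can show.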
